A study of Mus musculus with 4 samples.

Results

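The genes described are 10 genes of skeletal myogenesis: the transcription factors *Myf5*, *Myf6*, *Myod1* and *Myog*, the acetylcholine receptor subunits *Chrna1* and *Chrng*, and the contractile genes *Myh3*, *Tnnt3*, *Tnnc2* and *Myl1*. They were taken by name from the probe annotation of the arrays, and all 10 were found, with 17 probes, among 37074 gene names and 56604 probes with a value. RNA of whole mouse embryos was hybridized to 4 one-colour Agilent arrays, where the brightness of a spot reports how much labelled RNA bound to its short DNA probe. The mice were C57BL/6 in the labels and C57BL/6J in the methods, and the groups were wild-type (WT) embryos at embryonic day 8.5 (E8.5), *Dyrk2*-/- embryos at E8.5, WT embryos at E10.5 and *Dyrk2*-/- embryos at E10.5, with 1 array for each. *Dyrk2* encodes a protein kinase, and the null alleles were small deletions made with the CRISPR/Cas9 nickase. The paper describes several deletion lines, whose heterozygous mice were intercrossed. The labels state neither which line an RNA came from nor how many embryos it represents.

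Skeletal muscle of the trunk and limbs arises from the dermomyotome of the somites. Myf5, Myf6 (Mrf4) and MyoD commit cells to the muscle lineage, and myogenin drives the differentiation of myoblasts, which leave the cell cycle and fuse. Differentiating myocytes then switch on sarcomere proteins of embryonic and fast type and the subunits of the fetal acetylcholine receptor. In the mouse the first myotome forms at about the earlier of these stages, and the limb buds receive migrating muscle precursors by the later one.

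Signals are given as log2 values relative to the 75th percentile of the same array, and each gene is described by its brightest probe, the one with the highest mean over the 4 arrays. A probe was read as measured where the scanner software marked it as well above background. At E8.5 the lowest such signal was −4.82 for WT and −4.53 for *Dyrk2*-/- embryos, and at E10.5 it was −4.72 and −4.77. For a gene measured on a single array of a pair, the fold is a bound, taken against its dim value or that lowest signal, whichever is higher. A gene was called at 1.5-fold or more. With 1 array per group there was no replicate check and no p-value at a single stage, and precision is limited by the number of arrays. The error given with a difference joins the scanner software's errors of the 2 spots and does not cover the spread between embryos. In RNA of whole embryos, fewer muscle cells and less RNA per muscle cell cannot be told apart.

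The targeted gene did not check the labels. The brightest *Dyrk2* probe read 0.06 for WT and 0.76 for *Dyrk2*-/- embryos at E8.5, against −0.31 and 0.34 at E10.5. The other *Dyrk2* probe was higher in the *Dyrk2*-/- embryos by 0.03 at E8.5 and 0.28 at E10.5. Directions between genotypes therefore rest on the labels as submitted. The E10.5 arrays also differed in sex-linked transcripts. *Xist*, which is transcribed from the inactive X chromosome, was well above background only on the *Dyrk2*-/- E10.5 array, with a value of −0.37. The brightest probes of the Y-linked genes *Ddx3y* and *Eif2s3y* were measured on the remaining 3 arrays but lay at background on this array. Genotype and this difference cannot be told apart at E10.5, nor can stage and this difference in the *Dyrk2*-/- embryos.

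The 4 myogenic factors were all below the background limit at E8.5 on both arrays, and 3 of them were measured at E10.5. The probe of *Myog* (chromosome 1, 136188874 to 136188933, mm9) read −6.75 for WT and −6.47 for *Dyrk2*-/- embryos at E8.5, against 1.06 and 0.64 at E10.5. Both E8.5 arrays were thus at background and both E10.5 arrays were far above it, with WT the higher. In linear units of the scanner this was a processed intensity of 3.63 and 3.69 at E8.5 against 921 and 631 at E10.5. The signal was at least 58.8-fold higher at E10.5 in WT and at least 36.0-fold higher in the *Dyrk2*-/- embryos. With a normexp background correction, which adds 50 to every signal, the log2 differences were 3.85 and 3.23, below these bounds. At E10.5 *Myog* was 1.33-fold lower in the *Dyrk2*-/- embryos (log2 −0.42, error 0.20), which is under the 1.5-fold limit.

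*Myf6*, a factor of the first myotome that returns in mature fibres, read −6.96 in WT and −5.25 in the *Dyrk2*-/- embryos at E8.5 but −1.93 and −2.84 at E10.5 (chromosome 10, 106930237 to 106930296). It was at background on both E8.5 arrays and measured on both E10.5 arrays, and the WT array was the brighter. The stage difference was at least 7.42-fold in WT and at least 3.21-fold in the *Dyrk2*-/- embryos. At E10.5 it was 1.89-fold lower in the *Dyrk2*-/- embryos (log2 −0.92, error 0.22) and was called. With normexp this difference was −0.51, under the limit.

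*Myod1* encodes MyoD and is switched on after *Myf5* in the trunk. Its probe (chromosome 7, 53633956 to 53634015) read −6.09 and −6.81 at E8.5 in WT and *Dyrk2*-/-, and −3.42 and −4.75 at E10.5. The E10.5 WT array gave a low signal and the E10.5 *Dyrk2*-/- array lay at the edge of what could be measured. *Myod1* was 2.51-fold lower in the *Dyrk2*-/- embryos at E10.5 (log2 −1.33, error 0.37) and −0.32 with normexp. Between stages it was at least 2.64-fold higher at E10.5 in WT, and no fold is given in the *Dyrk2*-/- embryos because the E10.5 value was not above the E8.5 limit.

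*Myf5*, the first of the factors to be expressed in the somite, could not be measured. The probe (chromosome 10, 106919974 to 106920033) read −7.04, −6.77, −5.36 and −7.01 on the WT E8.5, *Dyrk2*-/- E8.5, WT E10.5 and *Dyrk2*-/- E10.5 arrays. None of these was well above background, so no fold is given. *Myf5* and *Myf6* are neighbours on chromosome 10 in the array annotation.

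Both receptor genes were at background at E8.5 and measured at E10.5. *Chrna1* encodes the α subunit of the muscle acetylcholine receptor, which binds the transmitter. It read −6.97 in WT and −5.40 in *Dyrk2*-/- embryos at E8.5 but −2.87 and −3.41 at E10.5 (chromosome 2, 73404112 to 73404171). The E8.5 arrays were at background and the E10.5 arrays above it, with WT the higher of the pair. The stage difference was at least 3.87-fold in WT and at least 2.17-fold in the *Dyrk2*-/- embryos. The E10.5 genotype difference was 1.46-fold lower in the *Dyrk2*-/- embryos (log2 −0.54, error 0.25), just under the limit.

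*Chrng* encodes the γ subunit, which marks the fetal form of the receptor. Its brightest probe (chromosome 1, 89108141 to 89108200) read −7.09 and −5.27 at E8.5 but −1.20 and −1.81 at E10.5, in WT and *Dyrk2*-/- embryos. As for *Chrna1*, both E10.5 arrays stood above both E8.5 arrays, and WT was the higher at E10.5. The signal was at least 12.3-fold higher at E10.5 in WT and at least 6.58-fold in the *Dyrk2*-/- embryos. The *Dyrk2*-/- embryos were 1.53-fold lower at E10.5 (log2 −0.61, error 0.21), just past the limit. This call was lost when arrays were scaled by spike-in controls (−0.45), with normexp (−0.41) and with the mean over its probes (−0.335). The other *Chrng* probe stayed at background on all 4 arrays.

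Among the contractile genes, *Myh3* and *Tnnc2* differed strongly between stages and *Tnnt3* and *Myl1* did not. *Myh3*, the embryonic myosin heavy chain, read −4.61 and −4.42 at E8.5, both marked as background, and 2.67 and 1.55 at E10.5 in WT and *Dyrk2*-/- embryos (chromosome 11, 66915724 to 66915783). The E10.5 WT array was the brightest and the *Dyrk2*-/- array second. Linear intensities were 15.9 and 15.3 at E8.5 against 2808 and 1182 at E10.5. *Myh3* was at least 155-fold higher at E10.5 in WT and at least 62.5-fold higher in the *Dyrk2*-/- embryos, and at E10.5 it was 2.17-fold lower in the *Dyrk2*-/- embryos (log2 −1.12, error 0.20). The other *Myh3* probe stayed at background on all 4 arrays.

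*Tnnc2* encodes the calcium-binding troponin of fast fibres and was measured on all 4 arrays (chromosome 2, 164602661 to 164602720). It read −2.82 in WT and −2.58 in *Dyrk2*-/- embryos at E8.5 but 1.81 and 0.73 at E10.5. Both stages could therefore be compared without a bound, and the E10.5 arrays were the higher. *Tnnc2* was 24.8-fold higher at E10.5 in WT and 9.92-fold in the *Dyrk2*-/- embryos (log2 3.62 and 2.37 with normexp). Between genotypes the log2 difference was 0.24 (error 0.23) at E8.5, where it was negative when arrays were scaled by spike-in controls (−0.31) or left unscaled (−0.02). At E10.5 *Tnnc2* was 2.12-fold lower in the *Dyrk2*-/- embryos (log2 −1.08, error 0.20).

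*Tnnt3*, the fast skeletal troponin T, was measured on all 4 arrays by all 3 of its probes. Its brightest probe (chromosome 7, 149701806 to 149701865) read −0.49, −0.65, −0.93 and −1.15 on the WT E8.5, *Dyrk2*-/- E8.5, WT E10.5 and *Dyrk2*-/- E10.5 arrays. The 4 values lay within a narrow range, highest at E8.5. The *Dyrk2*-/- minus WT difference was −0.15 at E8.5 (error 0.21) and −0.23 at E10.5 (error 0.21), and the E10.5 minus E8.5 difference was −0.43 in WT and −0.51 in the *Dyrk2*-/- embryos. None of the 4 differences was called. Under spike-in scaling the first was −0.70, past the limit, and the last was positive (0.13). The stage differences of the other probes were −0.46 in WT and −1.002 in *Dyrk2*-/- embryos for one but −0.66 and −0.64 for the other. The mean over the probes gave −0.52 in WT and −0.72 in *Dyrk2*-/- embryos, the latter past the limit.

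*Myl1* encodes the alkali light chains of fast myosin and had 4 probes. The brightest (chromosome 1, 66971597 to 66972798) read 3.26 on both E8.5 arrays, 2.91 on the WT E10.5 and 2.80 on the *Dyrk2*-/- E10.5 array. This probe was high everywhere. Genotype differences were 0.00 at E8.5 (error 0.20) and −0.11 at E10.5 (error 0.20), the latter 0.05 under spike-in scaling, and stage differences were −0.35 in WT and −0.46 in the *Dyrk2*-/- embryos. The other *Myl1* probes did not behave alike. The one at 66976853 to 66981100, read −2.58 and −2.32 at E8.5 but −2.11 and −2.35 at E10.5, a stage difference of 0.47 in WT and −0.03 in *Dyrk2*-/- embryos. A probe at 66970948 to 66971007 read 1.95 and 1.92 at E8.5 but 2.40 and 2.15 at E10.5, so that it was higher at E10.5, by 0.45 in WT and 0.23 in the *Dyrk2*-/- embryos. A probe at 66991114 to 66991173 was below background at E8.5 and read −3.91 and −3.80 at E10.5. The mean over all 4 probes, an alternative fixed beforehand, gave a stage difference of 0.61 in WT and 0.69 in *Dyrk2*-/- embryos, both past the limit and opposite in sign to the brightest probe. It includes the probe at background at E8.5. The mean over the 3 probes measured on all arrays, chosen after seeing the data, gave 0.19 and −0.08. With the mean over all probes of each gene, 8 members were called between stages in WT and 9 in *Dyrk2*-/- embryos, in the latter 8 higher and 1 lower, *Tnnt3*. The share of all genes called is not given under this setting. Members at background at E8.5 entered because they were high at E10.5, so these counts cannot be read as support.

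**Figure D1:**
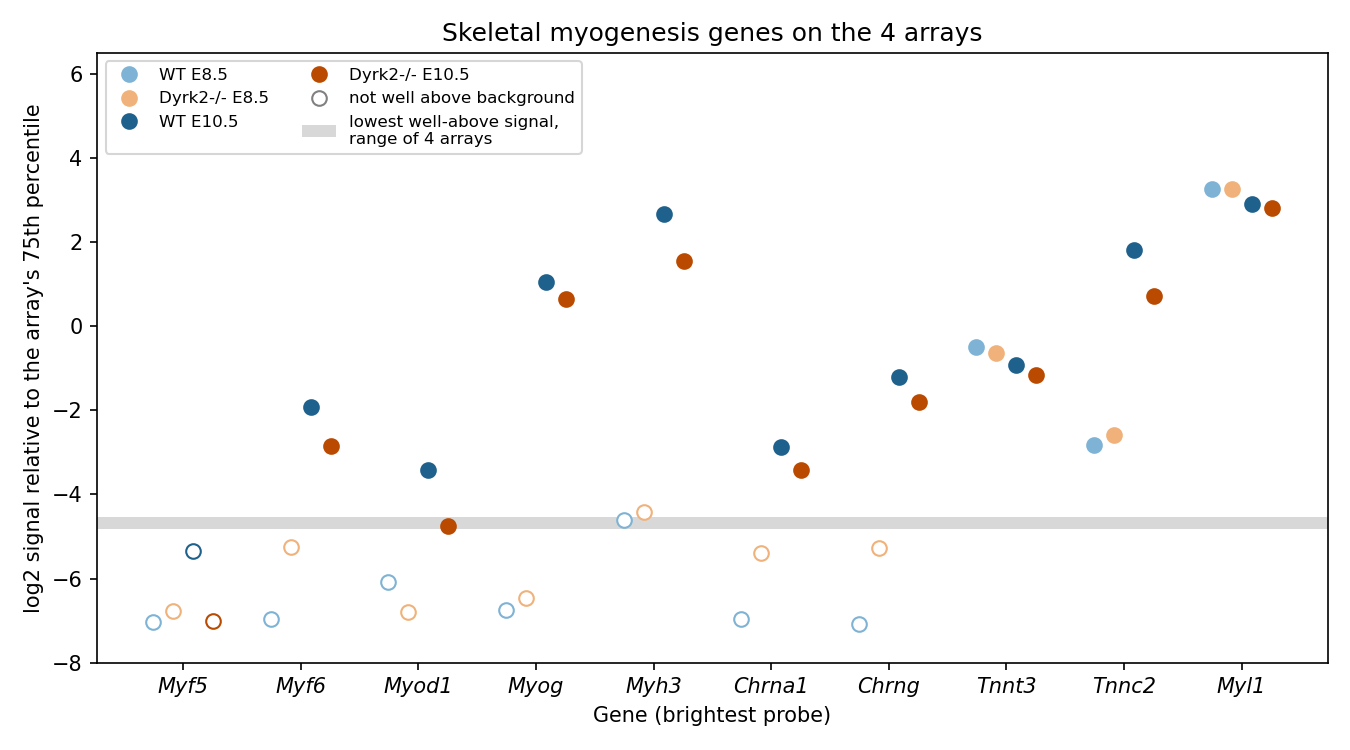
Log2 signal, relative to the array's 75th percentile, of the brightest probe of each of the 10 genes on the 4 arrays. Filled points are well above background and open points are not, and the grey band spans the lowest well-above signals of the 4 arrays, −4.82 to −4.53; *Myog* and *Myh3* lie near or under the band at E8.5 and at 0.64 to 2.67 at E10.5.

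Between stages in WT, 9 of the 10 members were measured and 7 were called higher at E10.5, against 18.8% of 21643 genes, and 0 were called lower, against 17.5%. Their median log2 difference was 4.63, or 2.89 with bounds in place of values, and that of all genes was −0.08. In the *Dyrk2*-/- embryos 7 of 9 were called higher, against 17.6% of 21266 genes, and 0 lower, against 13.9%. With bounds 6 were called, since *Myod1* had none. The median was 2.40, or 1.68 with bounds, against −0.05 for all genes. Members that were at background at E8.5 entered because they were high at E10.5, so these counts cannot be read as support. With normexp 6 were called in WT and 4 in *Dyrk2*-/- embryos, and no share of all genes is given for this setting. The log2 differences in WT and *Dyrk2*-/- embryos were then 4.92 and 3.61 for *Myh3*, 1.84 and 1.1 for *Chrng*, 1.38 and 0.47 for *Myf6*, 0.83 and 0.24 for *Chrna1* and 0.51 and 0.16 for *Myod1*, so the bounds above hold only without the offset.

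The stage was tested over both genotypes with limma, with the genotype as a block, over 32289 probes. The fit leaves 1 residual degree of freedom, and its residual is the difference of the stage effect between the genotypes. Its SE also draws on the spread of the other probes, so neither SE nor p measures the spread between embryos. Of 9 members fitted, 7 rose, against 15.7% of probes, and 2 fell, against 19.6%. Of the 7, 6 entered the fit through the E10.5 arrays alone, where they are high, so this count cannot be read as support either and no p is given for them. *Tnnc2*, measured on every array, rose by 3.97 (SE 0.26, limma adjusted p = 9.24e-06, or 0.00973 without the intensity trend). By its brightest probe, *Tnnt3* fell by 0.47 (SE 0.15, limma adjusted p = 0.0358) and *Myl1* by 0.40 (SE 0.12, limma adjusted p = 0.0275). The direction for *Myl1* differed between its probes, as given above. *Tnnt3* and *Myl1* lost the call under spike-in scaling, under no scaling and without the intensity trend. *Myl1* lost it also under quantile scaling and in the deposited table.

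At E8.5, 3 members were measured on the pair of arrays and 0 were called, in a comparison in which 5.14% of 20709 genes were called higher and 6.5% lower. The other 7 members were not well above background on either array. At E10.5, 9 members were measured on both arrays and 5 were called lower in the *Dyrk2*-/- embryos, *Myod1*, *Myh3*, *Tnnc2*, *Myf6* and *Chrng*, against 4.22% of 21209 genes, or 2.48% of the 20055 genes well above background on both arrays. None was called higher, against 3.5%. With a normexp background correction 2 were past the limit, *Myh3* (log2 −1.08) and *Tnnc2* (−1.01). The share of all genes called with normexp is not given, so the shares above do not apply to this count. All 9 values were negative, *Myl1* excepted under spike-in scaling, and the median was −0.61, against −0.001 for all genes. The genotype and stage comparisons share arrays, so a low value on the *Dyrk2*-/- E10.5 array enters both the E10.5 genotype difference and the stage difference of the *Dyrk2*-/- embryos. Over both stages, limma with the embryonic day as a block called 0 of 9 members between genotypes, against 0.0186% of 32289 probes. For 6 of the 9 the E8.5 values in this fit were at background, so its 0 speaks only of *Tnnc2*, *Tnnt3* and *Myl1*. At an unadjusted p under 0.05 there were 0 members and 1592 probes.

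**Figure D2:**
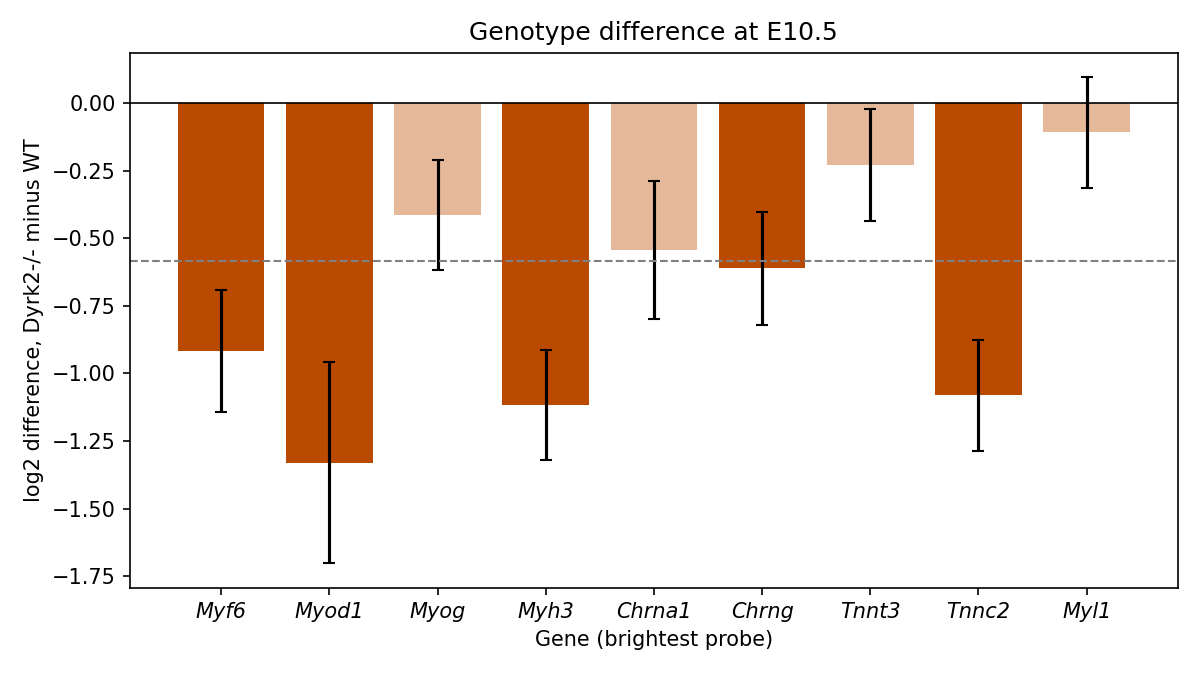
Log2 difference between the *Dyrk2*-/- and WT arrays at E10.5 for the 9 genes measured, with bars showing the joined error of the 2 spots, not of embryos. The dashed line is the 1.5-fold limit and darker bars pass it; *Myod1* is lowest at −1.33 and *Myl1* nearest 0 at −0.11.

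Genes that act upstream of the myogenic factors were mostly measured already at E8.5. Of 16 such genes, 16 were measured between stages in WT, with 6 called higher and 1 lower. In that comparison *Lbx1*, which marks muscle precursors that migrate to the limb, was 12.8-fold higher at E10.5 (log2 3.67). *Meox2* was 5.40-fold higher (log2 2.43) and *Dmrt2* 3.18-fold higher (log2 1.67), and *Tbx1*, a factor of pharyngeal muscle, was 1.96-fold lower (log2 −0.97). In the *Dyrk2*-/- embryos 5 were called higher and 4 lower, *Tbx1*, *Eya1*, *Meox1* and *Tcf15*, and spike-in scaling left *Tbx1* alone of these 4. Among all genes, 18.8% were called higher and 17.5% lower in WT, against 17.6% and 13.9% in *Dyrk2*-/- embryos. At E8.5, 3 of 15 were called higher in the *Dyrk2*-/- embryos, namely *Meox2* (log2 1.03), *Dmrt2* (0.70) and *Lbx1* (0.66), and 0 lower, against 5.14% and 6.5% of all genes. At E10.5, *Lbx1* was called lower (log2 −0.67) and *Msc* higher (0.64), against 4.22% and 3.5% of all genes. Both calls were lost with normexp, and that of *Msc* also with no scaling. *Eya2* had a difference of −0.32. The list's median at E10.5 was −0.09.

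The partners and inhibitors of the factors number 14 genes, among them the MEF2 proteins, the E proteins and the Id proteins, which bind E proteins and keep them from DNA. Between stages in WT, 5 of 14 were called higher and 0 lower, against 18.8% and 17.5% of all genes. The largest differences were those of *Id4* (log2 2.62), *Twist2* (2.46), *Mdfi*, an inhibitor of the myogenic factors (1.52), and *Twist1* (0.998). In the *Dyrk2*-/- embryos 5 were called higher and 1 lower, against 17.6% and 13.9%. Spike-in scaling gave 10 and 0 there, with a median of all genes of 0.59 and no share of all genes given. Between genotypes at E8.5, *Mdfi* (0.76) and *Twist2* (0.59) were called higher and *Twist1* had a difference of 0.53. *Mef2b* was called lower there from a value at background and was at least 1.40-fold lower as a bound. The shares of all genes at E8.5 were 5.14% higher and 6.5% lower. At E10.5, 0 of 14 were called, against 3.5% of all genes higher and 4.22% lower. The largest differences there were those of *Id4* (−0.50), *Mef2b* (−0.36) and *Id3* (0.22).

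Other genes of the sarcomere and of excitation were spread in both directions between stages. In WT, 5 of 22 measured were called higher and 4 lower, and in the *Dyrk2*-/- embryos 5 and 8 of 21. The shares of all genes were 18.8% and 17.5% in WT and 17.6% and 13.9% in *Dyrk2*-/- embryos. In WT *Neb* was called from a value at background and was at least 1.18-fold higher as a bound, so 4 were called higher with bounds. With normexp the counts were 3 and 4 in WT and 3 and 5 in *Dyrk2*-/- embryos. Under spike-in scaling those in *Dyrk2*-/- embryos were 8 higher and 1 lower, *Acta1*. With no scaling the counts were 10 higher and 2 lower in WT, against 7 and 2 in *Dyrk2*-/- embryos. The median of all genes in *Dyrk2*-/- embryos was 0.59 under spike-in scaling and 0.25 with no scaling. No share of all genes is given for these settings or normexp, so the shares above do not apply to their counts. *Mylpf*, the fast regulatory light chain, was 5.70-fold higher at E10.5 in WT (log2 2.51), followed by *Myom2* (1.49) and *Tnnt1* (1.33), and *Myl4*, an atrial and embryonic light chain, was lower (−0.90). *Mybpc1* was at least 13.5-fold higher. The genes *Myh1*, *Myh2*, *Ckm*, *Mybpc2*, *Cacng1* and *Klhl41* lay at background on all 4 arrays. At E8.5, 3 of 21 were called higher in the *Dyrk2*-/- embryos and 1 lower, against 5.14% and 6.5% of all genes. The latter was *Myom2*, from a value at background and at least 1.38-fold lower as a bound, so it was not called with bounds. *Ryr1* had a difference of 0.59, *Myh8* of 0.55 and *Acta1* of 0.51, and *Myh4* and *Mybpc1* were at least 1.88-fold and 1.67-fold higher.

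At E10.5 the same list had 5 of 22 called lower in the *Dyrk2*-/- embryos and 0 higher, against 4.22% and 3.5% of all genes, with a median of −0.11. With normexp, for which no share of all genes is given, 2 were past the limit, *Mylpf* and *Tnnt1*. *Myom2* was 1.95-fold lower (log2 −0.96), *Tnnt1*, the slow troponin T, 1.64-fold lower (−0.72) and *Actn3*, the fast α-actinin, 1.60-fold lower (−0.68). The other two were *Mylpf* (−0.67) and *Neb*, and *Neb* was at least 1.14-fold lower as a bound, so 4 were called with bounds. *Mylpf* and *Neb* were named here after their values were seen.

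Of the other genes of the acetylcholine receptor and endplate, 8 were measured between stages in WT and 0 were called in either direction, against 18.8% higher and 17.5% lower of all genes. The largest stage differences were those of *Rapsn*, which clusters the receptor (log2 0.54), *Agrn* (−0.50), *Dok7* (0.45) and *Colq* (0.26). In the *Dyrk2*-/- embryos 1 of 7 was called higher and 1 lower, against 17.6% and 13.9%. At E8.5, where 5.14% of all genes were called higher and 6.5% lower, *Rapsn* was called higher in the *Dyrk2*-/- embryos (0.79), *Dok7* had a difference of 0.53 and *Chrnd* of 0.22, and *Colq* was at least 1.77-fold lower. At E10.5, *Chrnb1* was called lower from a value at background and was at least 1.43-fold lower as a bound. There *Colq* had a difference of −0.29, *Chrne* of 0.24 and *Chrnd* of −0.21. *Musk* lay at background on all 4 arrays.

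Of 10 genes measured of fusion, adhesion and growth control of myoblasts, 6 were called higher and 1 lower at E10.5 in WT, against 18.8% and 17.5% of all genes, and 5 and 1 in *Dyrk2*-/- embryos, against 17.6% and 13.9%. With normexp 5 and 2 were called higher. In *Dyrk2*-/- embryos spike-in scaling called 9 higher and no scaling 7, where the median of all genes was 0.59 and 0.25. No share of all genes is given for these counts or for those with normexp. Of the 6 called higher in WT, *Gm7325*, *Mstn* and *Tmem8c* entered through their E10.5 values alone, so these counts cannot be read as support. *Megf10* was 11.4-fold higher at E10.5 in WT (log2 3.51), the cadherin gene *Cdh15* 3.34-fold (1.74) and *Boc* 1.53-fold (0.62), and *Fgfr4* was 3.53-fold lower (−1.82). *Gm7325*, which encodes the fusion protein myomixer, was at least 11.3-fold higher, *Mstn*, which encodes myostatin, at least 5.23-fold and *Tmem8c*, which encodes myomaker, at least 2.99-fold. At E8.5, 0 of 7 were called between genotypes, against 5.14% of all genes higher and 6.5% lower. The largest differences there were −0.56 for *Megf10*, 0.55 for *Cdh15* and −0.43 for *Fgfr4*. At E10.5, 1 of 10 was called lower in the *Dyrk2*-/- embryos, *Mstn* (−0.78), against 4.22% of all genes, and 0 with normexp. There *Gm7325* had a difference of −0.45 and *Cdh15* of −0.44. The median of the list was −0.37, or −0.205 with normexp.

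Markers of other tissues were read beside these values, since a whole embryo holds them all. The shares of all genes called between genotypes were 5.14% higher and 6.5% lower at E8.5, against 3.5% and 4.22% at E10.5. Of 12 heart muscle genes, 0 were called between genotypes at E10.5, with a median of −0.04, and 2 were called higher at E8.5, *Myl2* (0.81) and *Tnni3* (0.62). Their summed linear signal, in units of the array's 75th percentile, was 199.8 in WT and 206 in *Dyrk2*-/- embryos at E8.5, against 127 for each genotype at E10.5, with the *Myh6* probe the brightest. The brightest probe of a list is the one with the highest mean log2 over the 4 arrays, and since probes bind with different strength it does not rank transcripts. Of 5 smooth muscle genes measured, 0 were called at either stage, and the sums were 65.5, 68.6, 35.1 and 35.4, with *Acta2* the brightest and *Lmod1* at background. The sum over the 10 members was 10.52 on both E8.5 arrays, 20.9 in WT at E10.5 and 14.1 in *Dyrk2*-/- embryos at E10.5. *Myl1* was the brightest, at log2 3.26 on both E8.5 arrays, where 3 members were measured. The E8.5 sums therefore rest mostly on this 1 probe.

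The counts of other lists at E10.5 stand against 4.22% of all genes called lower and 3.5% called higher. Of 7 presomitic and tail bud genes measured, 3 were called lower in the *Dyrk2*-/- embryos, with a median of −0.54. The sums were 48.3, 41.6, 12.4 and 8.98, and *Dll3* was the brightest by the mean, with *Cdx2* and *Tbx6* above it on both E8.5 arrays. Of 6 sclerotome and tendon genes, 2 were called lower, with a median of −0.41 and sums of 8.48, 8.37, 11.1 and 8.23, and *Foxc2* was the brightest. Of 8 neural genes, 1 was called lower, with a median of −0.25 and sums of 30.0, 24.8, 62.1 and 45.4, and *Stmn2* was the brightest. Of 7 yolk sac endoderm genes, 0 were called at E10.5, with a median of −0.47, and 4 of 6 were called lower at E8.5, against 6.5% of all genes. With no scaling 4 were called lower at E10.5, for which no share of all genes is given, and with normexp the median there was −0.06. The sums of the yolk sac genes were 27.8, 17.7, 18.1 and 14.9, and *Afp* was the brightest.

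Of 11 primitive erythrocyte genes, 11 were called higher in the *Dyrk2*-/- embryos at E8.5, against 5.14% of all genes, and 7 at E10.5, against 3.5%, where the median was 1.11. Their summed signal was 17.4 in WT and 384 in *Dyrk2*-/- embryos at E8.5 but 1377 and 1603 at E10.5, with *Hbb-bh1* the brightest by the mean and *Hbb-y* above it at E10.5. The part of these shifts in the lower signal of the members at E10.5 was not tested.

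**Figure D3:**
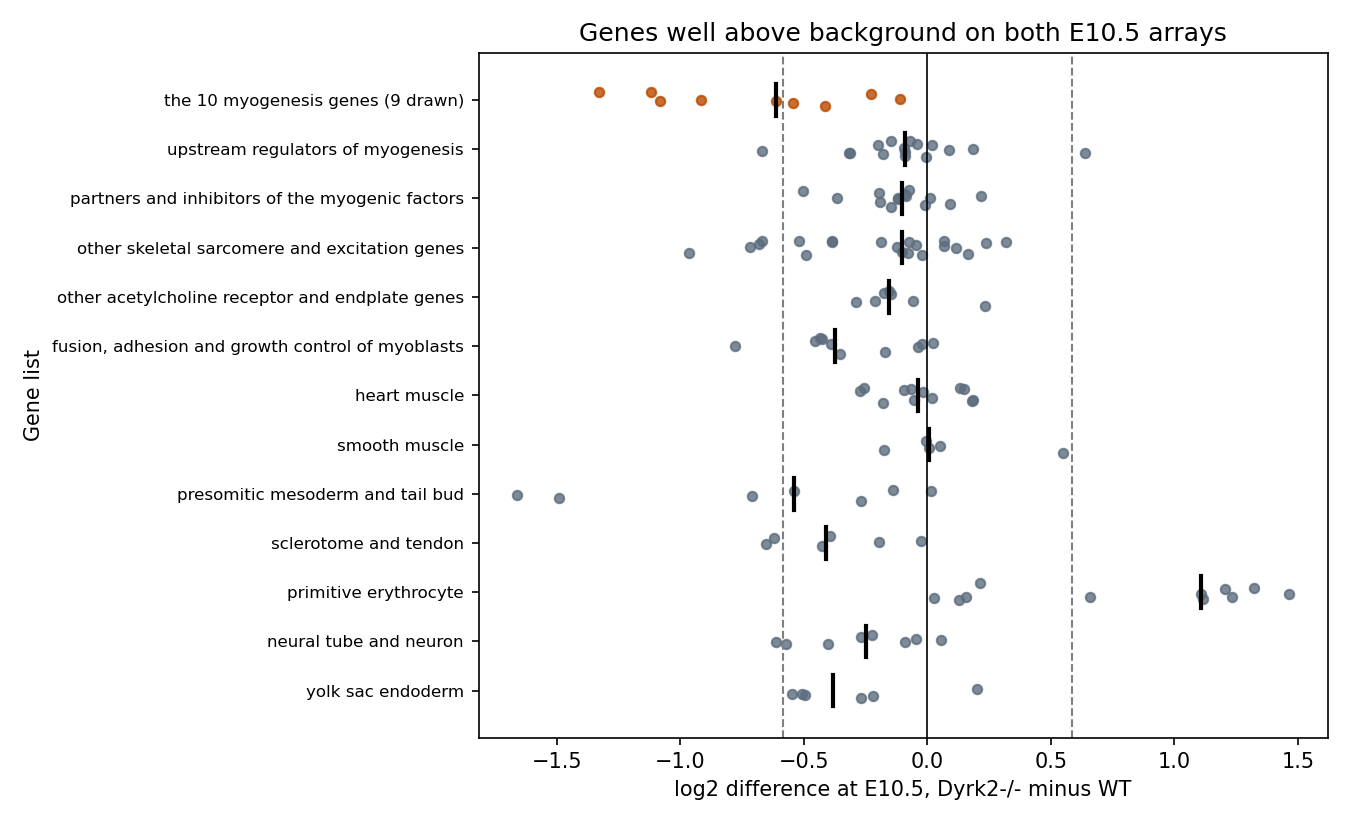
Log2 difference between the *Dyrk2*-/- and WT arrays at E10.5 for the genes of each list that were well above background on both arrays, 1 point per gene, with the vertical spread for display alone. Black bars are medians of the points drawn and dashed lines the 1.5-fold limits; the members' bar is at −0.61 and that of the primitive erythrocyte genes at 1.11.

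Scaling by the spike-in controls shifts every genotype difference by −0.55 at E8.5 and by 0.16 at E10.5. At E8.5 this turns *Twist1*, *Acta1*, *Dok7* and *Chrnd* negative and takes *Meox2*, *Dmrt2*, *Lbx1*, *Mdfi*, *Twist2*, *Ryr1*, *Myh4* and *Rapsn* under the 1.5-fold limit. At E10.5 it takes *Chrng*, *Lbx1*, *Tnnt1*, *Actn3* and *Mylpf* under the limit, leaves *Myf6*, *Myod1*, *Myh3*, *Tnnc2*, *Myom2* and *Mstn* past it, and turns the medians of the upstream, partner, other sarcomere and heart lists positive. Between stages the shift is −0.07 in WT and 0.64 in *Dyrk2*-/- embryos. Counts of the lists under this scaling were taken after seeing the data, and the share of all genes called under it is not given. At E8.5 the median of all genes was then −0.57, close to the 1.5-fold limit. The counts below are therefore not read as results about the lists. At E10.5 the genes called lower between genotypes went from 3 to 2 in the presomitic list, from 2 to 0 in the sclerotome and tendon list and from 1 to 0 in the neural list. At E8.5 more genes were called lower and fewer higher. The heart list went from 2 higher and 0 lower to 0 and 6, the partner list from 2 and 1 to 0 and 6 and the other sarcomere list from 3 and 1 to 1 and 7. The neural list went from 1 and 0 to 0 and 5, the upstream list from 3 and 0 to 0 and 2 and the endplate list from 1 and 1 to 0 and 2. The presomitic, fusion, smooth muscle, yolk sac and sclerotome lists had 6, 3, 2, 6 and 2 lower in place of 0, 0, 0, 4 and 1. All 11 erythrocyte genes stayed called higher. With normexp, 1 upstream, 1 partner, 0 other sarcomere and 0 endplate genes were called at E8.5, so calls of the muscle lists at that stage depend on the processing.

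The genes most like the members over the 4 arrays were looked up by the distance between centred log2 values and the mean of the 9 members measured, which was −1.996, −1.45, 2.07 and 1.37. Among 20046 genes measured on both E10.5 arrays, the 5 nearest were *Ptf1a* (distance 0.12), *Adgre1* (0.20), *Cspg5* (0.21), *Copg2os2* (0.23) and *Hoxd11* (0.25). Of these, *Cspg5* was measured on every array and the others were at background at E8.5, as were 6 of the 9 members. The mean of the members and the distances therefore rest in part on values at background, and their order is not read further.

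Promoter sequence was read from the RefSeq table for GRCm38.p6, as 250 bases upstream of each gene start. Of the 10 members, 7 were matched to it, *Myf5*, *Myog*, *Myh3*, *Chrna1*, *Chrng*, *Tnnc2* and *Myl1*. No match was made for *Myf6*, *Myod1* and *Tnnt3*. The motif CANNTG, the E-box to which myogenic factors bind with E proteins, reads the same on both strands. It occurred in 6 of 7, all but *Myf5*, and in 66.2% of 32851 promoters. The form CAGCTG, a subset of it, occurred in 3 of 7 and in 13.0% of all, with 2 copies each in *Chrna1* and *Chrng* and 1 in *Myl1*, and 1.26% of all promoters held 2 or more. The MEF2 motif, taken as YTAWWWWTAR (Y for C or T, W for A or T, R for A or G) and searched on both strands, occurred in 0 of 7 and in 2.92% of all. TATAAA, on both strands, occurred in *Myh3* and *Myl1*, so in 2 of 7, and in 12.4% of all. A match describes the letters of the window and is not a binding site. Nor does the lack of a match to a fixed pattern show that a site is lacking.

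The promoters of *Chrna1* (chr2:73580339-73580588, minus strand), *Chrng* (chr1:87205561-87205810, plus strand), *Myog* (chr1:134289754-134290003, plus strand) and *Tnnc2* (chr2:164779735-164779984, minus strand) are shown as examples of members called higher at E10.5 in WT, with CANNTG in capitals. The CAGCTG words began 92 and 44 bases upstream of the start in *Chrna1* and 155 and 132 in *Chrng*.
Chrna1: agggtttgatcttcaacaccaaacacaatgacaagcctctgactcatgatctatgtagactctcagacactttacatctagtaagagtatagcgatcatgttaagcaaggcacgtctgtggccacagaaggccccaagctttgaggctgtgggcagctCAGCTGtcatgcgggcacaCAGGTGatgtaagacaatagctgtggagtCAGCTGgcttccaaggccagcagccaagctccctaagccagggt
Chrng: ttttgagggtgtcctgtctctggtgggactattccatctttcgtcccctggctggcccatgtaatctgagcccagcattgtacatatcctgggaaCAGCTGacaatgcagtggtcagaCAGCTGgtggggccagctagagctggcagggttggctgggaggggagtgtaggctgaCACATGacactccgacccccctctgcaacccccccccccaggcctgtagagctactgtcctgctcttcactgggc
Myog: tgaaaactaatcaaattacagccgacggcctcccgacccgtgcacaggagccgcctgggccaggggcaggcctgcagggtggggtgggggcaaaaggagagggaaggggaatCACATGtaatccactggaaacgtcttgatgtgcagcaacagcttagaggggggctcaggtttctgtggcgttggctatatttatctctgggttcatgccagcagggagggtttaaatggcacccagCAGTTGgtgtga
Tnnc2: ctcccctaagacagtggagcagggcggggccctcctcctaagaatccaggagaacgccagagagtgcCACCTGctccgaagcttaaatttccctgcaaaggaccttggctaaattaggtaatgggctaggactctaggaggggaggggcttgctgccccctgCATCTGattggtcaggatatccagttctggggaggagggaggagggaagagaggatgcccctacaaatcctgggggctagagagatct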

How the data were processed

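RNA of 4 whole-embryo groups, 1 array each and all on 1 slide, was measured. Per the file headers the scanner files come from Feature Extraction 10.7.1.1 (the labels name 9.5.1.1). Their processed intensity, as deposited, is on a linear scale, with the background subtracted and trends within the array removed. They also deposited a table of linear intensity values in which all 4 columns have a median of 27.6, and it served as an alternative. Its scaling is not given in the sources used here.

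Log2 intensity was averaged over spots not marked as outliers, and each array's 75th percentile was subtracted. Of 56605 probes, those well above background numbered 31371 (WT) and 30227 (*Dyrk2*-/-) for E8.5 and 31819 and 31943 for E10.5. No spot was saturated, and the median SD between repeated spots was 0.09, 0.12, 0.07 and 0.08 (log2). Probe positions are those of the annotation (mm9). Exons were not analysed here. Genes were compared if either array of a pair measured them. limma 3.58.1 in R 4.3.3 (lmFit, then eBayes with an intensity trend) fitted stage and genotype additively. Benjamini-Hochberg adjustment ran over the probes that 2 or more arrays measured. A run on simulated data used independent noise, no genotype effect and only probes measured on all 4 arrays. It therefore does not check the fit for members at background at E8.5. Python 3.11.15, numpy 2.4.6, pandas 2.3.3 and matplotlib 3.10.9 were used.

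The members and lists were chosen with earlier results of these data known. Named were all members, from each pathway list the up to 4 largest stage differences in WT and up to 3 largest genotype differences at each stage among genes above background on both arrays (a gene above on 1 as a bound), the marker with the brightest probe, list genes at background on every array, the 5 genes nearest to the members and *Dyrk2*. *Xist* and the Y-linked genes were added to this. Of the fusion list, 2 of 12 names were not in the annotation. Alternatives tried were quantile, spike-in (7 of 10 control probes) and no scaling, the deposited table, normexp with offset 50, other filters on dim probes, a 2-fold limit, the mean over a gene's probes and limma without the trend. Calling genes at their bound, counting the lists under other scalings and averaging only the probes measured on all arrays were added after seeing the data. The promoter motifs were chosen then too, and all 4 searched are reported.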

Additional observations from a re-analysis of the deposited data

Results flagged for a closer look

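*Tnnc2* had genotype differences of opposite sign at the stages, with a log2 value of 0.24 at E8.5 and −1.08 at E10.5 (*Dyrk2*-/- minus WT). The E8.5 value was about as large as its error (0.23). It was negative under spike-in scaling (−0.31) and with no scaling (−0.02), so the opposite sign depends on the scaling. The difference between the stages was not tested, since each group had 1 array.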

How the results depend on the processing

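Leaving out an array was not possible, because each group has 1. No paired analysis was possible because the groups carry no replicate numbers to pair, and limma used the stage or genotype as its block instead. Of the members called at E8.5 between genotypes (0), spike-in scaling gave 1 and no filter on dim probes 4. At E10.5 (5), normexp gave 2 and a 2-fold limit 3. For the counts by fold, no share of all genes is given under another scaling, background, probe or fold setting. Between stages, a filter on both arrays gave 1 of the 7 in WT and 1 of the 7 in *Dyrk2*-/- embryos, by its own construction, and normexp gave 4 in *Dyrk2*-/- embryos. For limma, the filter on all 4 arrays left 3 members to fit and called 3 of them by stage (9 in the main setting and 7 to 9 under the others), and no scaling called 2 between genotypes (0 in the main setting), with 729 probes called in all. Beyond these filters, the cause was not tested. Calling at the bound, an alternative chosen after seeing the data, gave 0, 5, 7 and 6.

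Spike-in scaling moved the median of all genes by −0.55 between genotypes at E8.5, 0.16 at E10.5 and 0.64 between stages in *Dyrk2*-/- embryos. No scaling moved it by −0.26, −0.13, 0.31 and, in WT between stages, 0.18. At E10.5 the genotype differences of *Myh3* lay between −1.25 and −0.96 and those of *Tnnc2* between −1.21 and −0.92 under the scaling, source, background and probe alternatives, and those of *Myod1* between −1.46 and −0.32. The sign changed under at least 1 alternative for *Tnnc2* at E8.5, for *Myl1* in all 4 comparisons and for *Tnnt3* between stages in *Dyrk2*-/- embryos. Signals near background limit what can be said of *Myod1*, and *Myf5* has no value above it.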
